A study of Rattus norvegicus with 6 samples.

Results

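Egr1, Egr2, Egr3 and Egr4, the corepressors Nab1 and Nab2, and Srf were followed through 12 probe sets, all those of the array whose annotation names only 1 of these 7 genes, out of 31042 probe sets. Each sample of rat pituitary organ culture, tissue kept alive outside the animal, was hybridised to its own array, with 3 samples given 10 nM GnRH (gonadotropin-releasing hormone) and 3 control samples with no agent named in their labels. The labels used here name no time of exposure, strain, sex or age. Nor do they say whether the samples were separate cultures or animals, so the p-values measure the spread among these samples alone, which may in part be technical. The labelled tissue was borne out by the pituitary hormone mRNAs: Gh1, encoding growth hormone, had log2 intensities of 14.18, 14.09 and 14.17 with GnRH, against 14.26, 14.22 and 14.20 in controls.

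The Egr proteins are zinc-finger transcription factors that bind GC-rich DNA and are made within minutes to hours of many stimuli. In gonadotropes, the source of LH and FSH, GnRH acts through MAP kinases to switch on Egr1, and Egr1 together with SF-1 (the product of Nr5a1) and Pitx1 drives the gene for the LH beta subunit, Lhb. Srf (serum response factor) binds CArG boxes in the promoters of immediate early genes such as Egr1, with Ets-family cofactors that the kinases phosphorylate, and also in promoters of actin cytoskeleton genes. Nab1 and Nab2 bind Egr1, Egr2 and Egr3, but not Egr4, and for the most part repress what they switch on. Nab2 is itself an Egr-induced gene, so the pair forms a feedback brake.

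None of the 12 probe sets passed the test between GnRH and control cultures. Egr1 differed from array to array more than the other members, and its direction depended on which controls it was set against: it lay lower with GnRH than in controls 1 and 2 and higher than in control 3. Egr2, Egr3, Egr4, Nab1 and Nab2 had small differences in either direction. Srf had higher means with GnRH on all 3 of its probe sets, by 0.32, 0.03 and 0.36 on the log2 scale, and its groups overlapped on each. By limma with Benjamini-Hochberg adjustment over all 31042 probe sets, the adjusted p-values of the members ran from 0.291 to 0.945, so 0 of 12 passed, against 0.464% of all probe sets. At an unadjusted p under 0.05 there were 2 of 12, both of Srf, against 12.3% of all probe sets. The groups overlapped in all 12, whereas they did not in 16.7% of all probe sets.

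Control 3 was unlike controls 1 and 2, and several values below rest on it. Across probe sets, controls 1 and 2 had a Pearson correlation of 0.994, and control 3 had 0.983 and 0.986 with them and 0.988 to 0.991 with the GnRH arrays. Log2 values of Xist, the X-inactivation RNA of female cells, were 9.73, 9.16 and 9.49 with GnRH, against 3.91 and 3.66 in controls 1 and 2 and 9.77 in control 3. The 3 GnRH arrays thus shared a high Xist level with control 3 alone. Leaving out control 3 sets high-Xist GnRH arrays against low-Xist controls only. In every value given without control 3, GnRH and whatever set the Xist level cannot be told apart. With all 6 arrays they can be told apart only in part, through control 3, so those values carry this limit too. The plot of differences therefore gives the 12 member probe sets with all 6 arrays, without control 3, and against control 3 alone. Values against control 3 alone are given as descriptions without a p-value, since that array was picked after its low Egr1 value had been seen. In 5 of the 12 member probe sets (41.7%) control 3 was the lowest of the 6 arrays, compared with 20.9% of all probe sets.

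**Figure D1:**
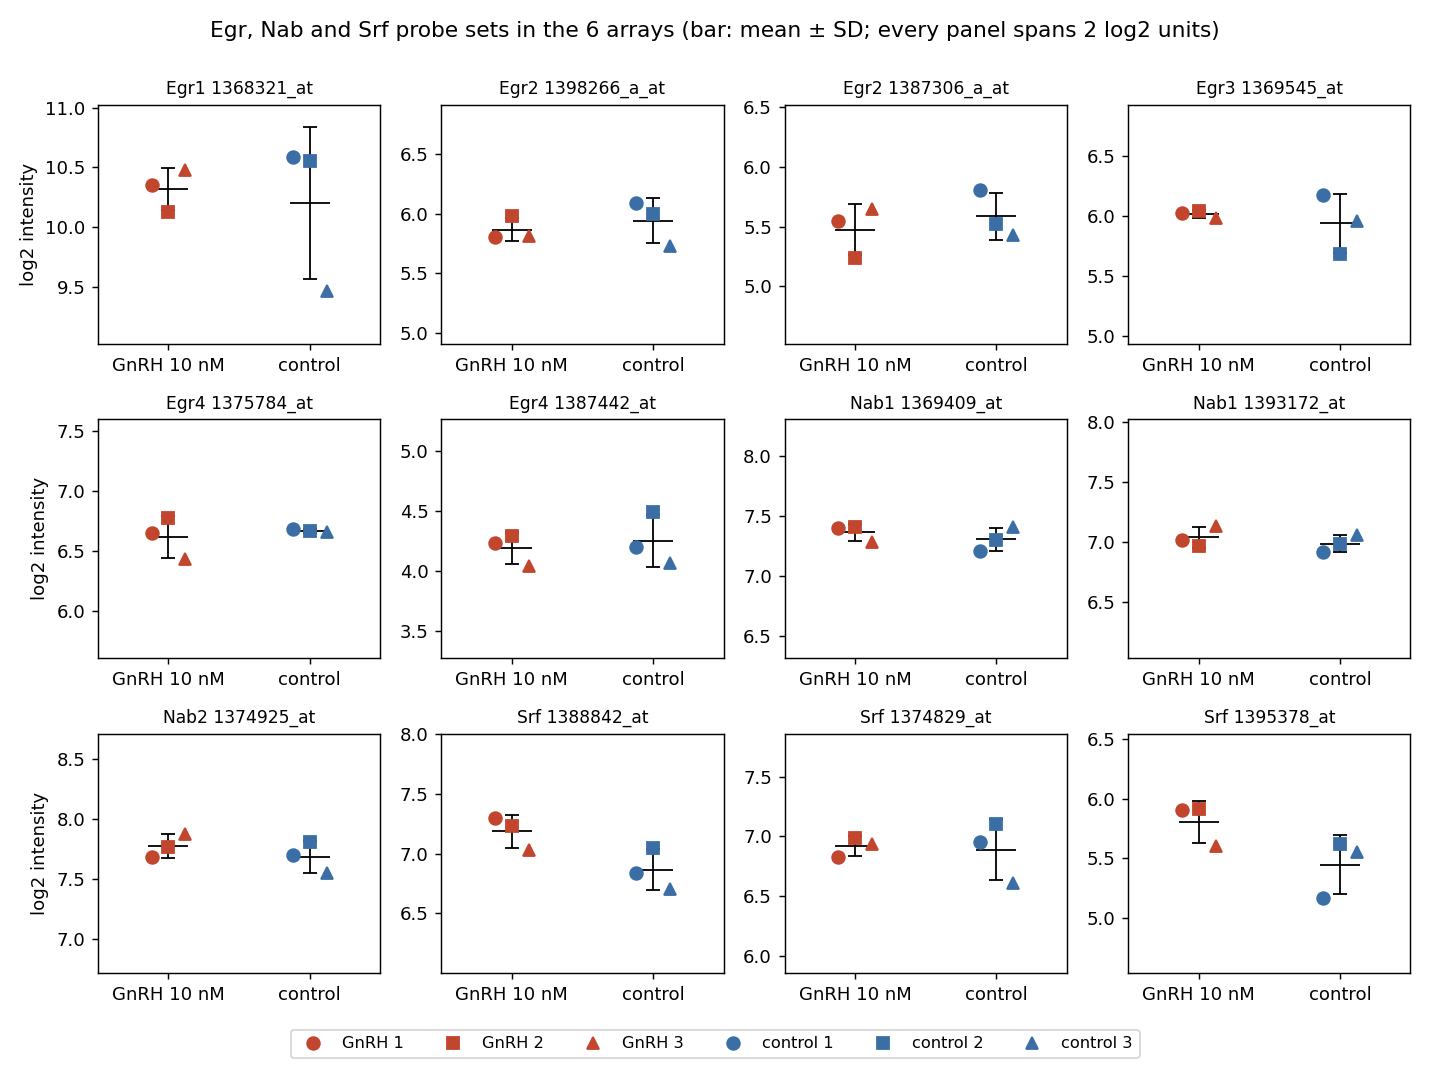
Log2 intensity (vertical axis) of each of the 12 probe sets in the 3 GnRH arrays (red, left) and the 3 control arrays (blue, right), with symbols for replicates 1 to 3 and a bar at the mean ± SD. The GnRH and control points overlap in every panel, and Egr1 in control 3 lies at 9.47, far under its 5 other values.

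Egr1 was bright on its single probe set (1368321_at). The gene lies on chromosome 18 from 26737078 to 26740877 in GRCr8. Its log2 values were 10.36, 10.13 and 10.48 with GnRH, against 10.58, 10.55 and 9.47 in controls 1, 2 and 3. On the linear scale these are intensities of 1312, 1117 and 1424 with GnRH, against 1534, 1499 and 707 in controls. Controls 1 and 2 were the highest arrays, control 3 was the lowest, and all 3 GnRH arrays lay between them. The means were 10.32 ± 0.18 with GnRH and 10.20 ± 0.64 in controls (SD, n = 3 each). The difference was 0.12 ± 0.25 (SE) on the log2 scale, or 1.09-fold, with a 95% interval from -0.43 to 0.67 (limma adjusted p = 0.877). Without control 3 the difference was -0.25 ± 0.11 (95% interval -0.49 to -0.0070), but it did not pass (limma adjusted p = 0.184, when 7.44% of all probe sets passed). Against control 3 alone, the only control with the high Xist level of the GnRH arrays, it was 0.85, or 1.81-fold. From a single control array, what is particular to it and what goes with the Xist level cannot be told apart. In control 3, Egr1 was at 0.466 of the mean intensity of controls 1 and 2, a log2 difference of -1.10, and 33 of 31042 probe sets had a lower difference of this kind.

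The window around the Egr1 start is shown because it holds CArG boxes, the sequence that Srf is known to bind, set beside the windows of Egr2, Egr4 and Srf itself. Each runs 5′ to 3′ on the gene's own strand, from 250 bases before to 50 bases after a gene start in RefSeq (build GRCr8), with CArG boxes in capitals. A CArG box is CC, then 6 bases that are each A or T, then GG. The coordinates are chr18:26736828-26737127 (plus strand) for Egr1, chr20:21054392-21054691 (minus strand) for Egr2, chr4:119607768-119608067 (minus strand) for Egr4 and chr9:21923826-21924125 (plus strand) for Srf.
Egr1: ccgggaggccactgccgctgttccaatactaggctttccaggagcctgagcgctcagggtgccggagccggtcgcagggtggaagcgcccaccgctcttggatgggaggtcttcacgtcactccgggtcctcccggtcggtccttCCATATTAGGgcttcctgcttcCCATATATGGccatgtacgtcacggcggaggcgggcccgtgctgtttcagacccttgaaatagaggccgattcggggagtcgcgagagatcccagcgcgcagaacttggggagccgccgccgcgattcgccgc
Egr2: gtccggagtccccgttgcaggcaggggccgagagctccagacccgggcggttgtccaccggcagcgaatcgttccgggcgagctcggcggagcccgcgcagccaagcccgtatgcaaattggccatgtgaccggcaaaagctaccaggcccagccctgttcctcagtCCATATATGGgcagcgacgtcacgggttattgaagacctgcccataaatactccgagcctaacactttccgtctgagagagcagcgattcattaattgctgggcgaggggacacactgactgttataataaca
Egr4: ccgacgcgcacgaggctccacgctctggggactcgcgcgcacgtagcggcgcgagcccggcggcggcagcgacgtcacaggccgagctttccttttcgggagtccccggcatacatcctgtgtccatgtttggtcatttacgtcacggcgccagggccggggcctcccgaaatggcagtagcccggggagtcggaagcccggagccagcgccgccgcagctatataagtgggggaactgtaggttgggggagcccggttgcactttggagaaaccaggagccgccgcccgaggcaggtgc
Srf: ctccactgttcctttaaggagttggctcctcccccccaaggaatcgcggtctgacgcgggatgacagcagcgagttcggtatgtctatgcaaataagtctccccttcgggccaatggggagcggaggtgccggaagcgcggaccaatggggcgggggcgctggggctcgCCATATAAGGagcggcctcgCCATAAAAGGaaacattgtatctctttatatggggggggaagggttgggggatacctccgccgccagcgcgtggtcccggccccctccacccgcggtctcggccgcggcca
Egr1 had 2 CArG boxes, CCATATTAGG from 105 to 96 bases and CCATATATGG from 83 to 74 bases before its start. The second of these letter strings recurred in Egr2 at the same distance, 83 to 74 bases before the start used there. Srf also held 2, CCATATAAGG from 81 to 72 bases and CCATAAAAGG from 61 to 52 bases before its start. Egr4 held no match in this window. Of all 33469 windows of this length, 1.64% held a CArG box and 0.0209% held 2 or more. Those 7 windows belonged to 7 genes, among them Egr1, Srf and the MAP kinase phosphatase gene Dusp5. The Ets core GGAA, searched like the others on both strands, had 6 matches in Egr1, 3 in Egr2, 3 in Egr4 and 5 in Srf, but 95.8% of all windows held at least 1, and 2 of the matches in Egr1 and 1 in Srf overlapped a CArG box. These matches are descriptions of the letters, not shown binding sites. The starts used for Egr2, Nab1, Nab2 and Srf lie inside the outer bounds that RefSeq gives those genes, and those of Egr1 and Egr4 lie at them.

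**Figure D2:**
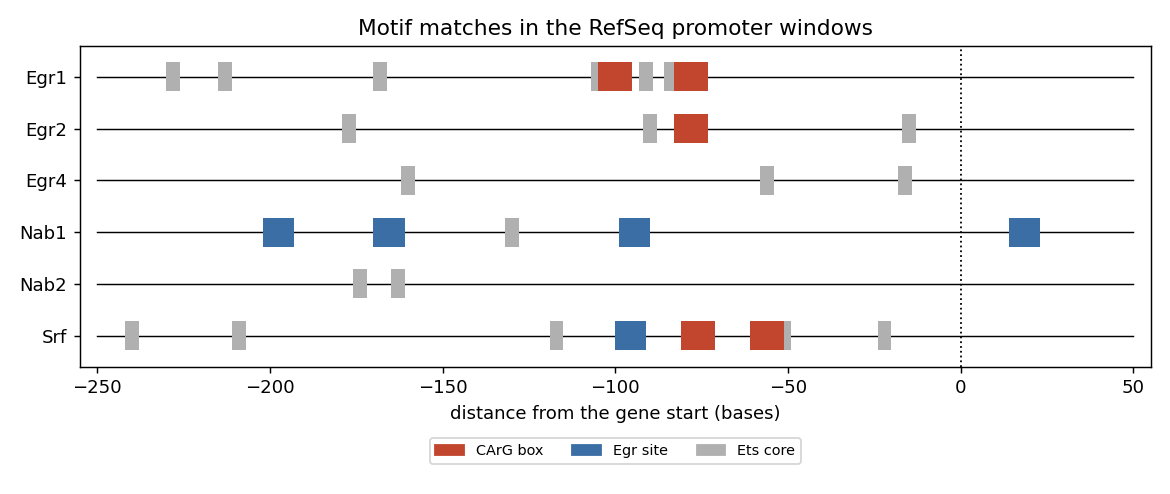
Positions of the matches to the CArG box (red), the Egr site (blue) and the Ets core (grey) in 6 promoter windows, with the distance from the gene start in bases on the horizontal axis. Egr1 and Srf each have 2 CArG boxes and Egr2 has 1; Nab1 has 4 Egr sites and Srf has 1.

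Genes picked for following Egr1 most closely shared its low value in control 3. That value made up most of the spread of Egr1, so the picking itself favoured genes low there. Likeness was the root mean square difference between centred log2 values over the 6 arrays, among 14216 other genes with 1 probe set each. Arc, an immediate early gene of synaptic plasticity, was nearest at 0.105, with 7.76, 7.59 and 7.91 with GnRH, against 7.86, 7.87 and 7.06 in controls. Akap8l, an A-kinase anchoring protein relative, followed at 0.116, the co-chaperone gene Bag3 at 0.119, Sh2d5 at 0.127 and Fxyd7 at 0.137. The other members were much farther off by this measure, which counts the size of differences between arrays as well as their order. Nab2 ranked 1209 at 0.316 and Egr2 ranked 1391 at 0.320, while Srf ranked 3511, Egr3 8568, Egr4 8810 and Nab1 10057.

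Egr2 (Krox20), which in peripheral nerve is the factor that drives myelination by Schwann cells, was measured on a pair of probe sets. On 1398266_a_at its log2 values were 5.81, 5.98 and 5.81 with GnRH, against 6.09, 6.0 and 5.73 in controls. The GnRH arrays lay under controls 1 and 2 and above control 3, the same order as in Egr1 but over a range of 0.37 in place of 1.12. The difference was -0.07 ± 0.11 (SE), with a 95% interval from -0.32 to 0.17 (limma adjusted p = 0.823). On 1387306_a_at the values were 5.55, 5.23 and 5.65 with GnRH, against 5.80, 5.52 and 5.43 in controls, a difference of -0.11 ± 0.13 (limma adjusted p = 0.768). Both probe sets turned sign against control 3 alone, at 0.14 and 0.05, and had -0.18 and -0.19 without it, neither of the last pair past the threshold. Of 4 measured Schwann and myelin markers, 0 passed by limma, 2 had an unadjusted p under 0.05, when 13.2% of all genes did, and all 4 had lower means with GnRH (median -0.18), as did 52.4% of all genes. Their summed intensity was 581 to 629 with GnRH, against 680 to 731 in controls. Its part in the Egr2 values was not tested. In whole organ RNA, fewer cells of a type and less RNA per cell cannot be told apart.

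Egr3, which in mouse is needed for muscle spindles and sympathetic neurons, had the tightest GnRH values of the family. They were 6.03, 6.05 and 5.99 with GnRH, against 6.18, 5.69 and 5.96 in controls. The controls spread over 0.49 and enclosed all 3 GnRH values, which spread over 0.06. The difference was 0.08 ± 0.12 (SE; 95% interval -0.19 to 0.34; limma adjusted p = 0.827). It turned to -0.05 without control 2, which held the lowest value.

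Egr4, the family member that the Nab proteins do not bind, had log2 values of 6.65, 6.77 and 6.43 with GnRH on 1375784_at, against 6.68, 6.67 and 6.66 in controls. Here the controls agreed within 0.03 and the GnRH arrays lay on both sides of them. The difference was -0.05 ± 0.10 (95% interval -0.28 to 0.17; limma adjusted p = 0.871). The other probe set, 1387442_at, was dim, with 4.23, 4.30 and 4.04 with GnRH, against 4.20, 4.49 and 4.06 in controls, and differed by -0.06 ± 0.12 (limma adjusted p = 0.870). No detection calls came with the values, so whether this probe set was above background is unknown.

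Nab1 had the narrowest spread among the members. On 1369409_at its log2 values were 7.40, 7.41 and 7.28 with GnRH, against 7.21, 7.30 and 7.40 in controls. On 1393172_at they were 7.01, 6.96 and 7.13 with GnRH, against 6.92, 6.98 and 7.06 in controls. Controls and GnRH arrays interleaved on both, within ranges of 0.20 and 0.22 over all 6 arrays. The differences were 0.06 ± 0.09 (95% interval -0.14 to 0.26) and 0.05 ± 0.09 (-0.15 to 0.25), with limma adjusted p-values of 0.826 and 0.849. Control 3 was the highest control on both, in contrast to Egr1.

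The Nab1 promoter window is shown in stretches because it held the Egr site GCGNGGGCG 4 times, where 4.98% of all windows held it at least once and 0.705% held 2 or more. The first 4 stretches below come from the Nab1 window, at chr9:56545425-56545463, chr9:56545457-56545495, chr9:56545528-56545566 and chr9:56545641-56545679, and the last from the Srf window at chr9:21923961-21923999, all on the plus strand of GRCr8. Capitals mark the match, which reads CGCCCNCGC where the site lies on the other strand.
Nab1 site 1: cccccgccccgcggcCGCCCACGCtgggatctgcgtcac
Nab1 site 2: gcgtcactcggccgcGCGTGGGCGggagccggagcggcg
Nab1 site 3: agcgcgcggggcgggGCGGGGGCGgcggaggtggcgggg
Nab1 site 4: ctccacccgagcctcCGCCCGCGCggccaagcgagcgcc
Srf site: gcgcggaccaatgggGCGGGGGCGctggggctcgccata
Sites 2 and 3 and the Srf site read on the gene's strand and sites 1 and 4 on the other. The windows of Egr1, Egr2, Egr4 and Nab2 held no match to these letters, which says nothing about the factors beyond this window and this spelling.

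Nab2, the Egr-induced member of the corepressor pair, had log2 values of 7.68, 7.77 and 7.88 with GnRH, against 7.70, 7.81 and 7.55 in controls. Control 3 was again the lowest array, but by far less than in Egr1. The difference was 0.09 ± 0.10 (SE), with a 95% interval from -0.13 to 0.31 (limma adjusted p = 0.744). Without control 3 it was 0.02 and did not pass, and against control 3 alone it was 0.23. Of 10 measured genes of the NuRD chromatin complex, through which Nab2 is known to repress, 0 rose and 0 fell by limma, where 0.556% of all genes rose and 0.0492% fell. An unadjusted p under 0.05 was reached by 2 of the 10, against 13.2% of all genes, and the median was 0.11, beside -0.01 over all genes. Mta1 (0.42), the helicase gene Chd3 (0.31) and Mbd3 (0.31) had the smallest p-values, with limma adjusted p-values of 0.152, 0.175 and 0.409.

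Srf had the largest mean differences of the members. On 1388842_at its log2 values were 7.29, 7.23 and 7.03 with GnRH, against 6.83, 7.05 and 6.71 in controls. GnRH 1 and 2 lay above all controls, while GnRH 3 lay just under control 2. The difference was 0.32 ± 0.11 (SE) or 1.25-fold, with a 95% interval from 0.07 to 0.57 (limma adjusted p = 0.291, unadjusted p = 0.0163). On 1395378_at the values were 5.90, 5.92 and 5.61 with GnRH, against 5.17, 5.62 and 5.56 in controls. The order was alike, with GnRH 3 again just under control 2, and the difference was 0.36 ± 0.13 or 1.28-fold (95% interval 0.06 to 0.66; limma adjusted p = 0.318, unadjusted p = 0.0220). The third probe set, 1374829_at, did not share this order. It had 6.83, 6.99 and 6.94 with GnRH, against 6.96, 7.10 and 6.61 in controls, a difference of 0.03 ± 0.12 (limma adjusted p = 0.945) that turned to -0.11 without control 3. Without control 3 the first pair had 0.24 and 0.42 and did not pass (limma adjusted p = 0.185 and 0.0964), and against control 3 alone they had 0.48 and 0.25.

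**Figure D3:**
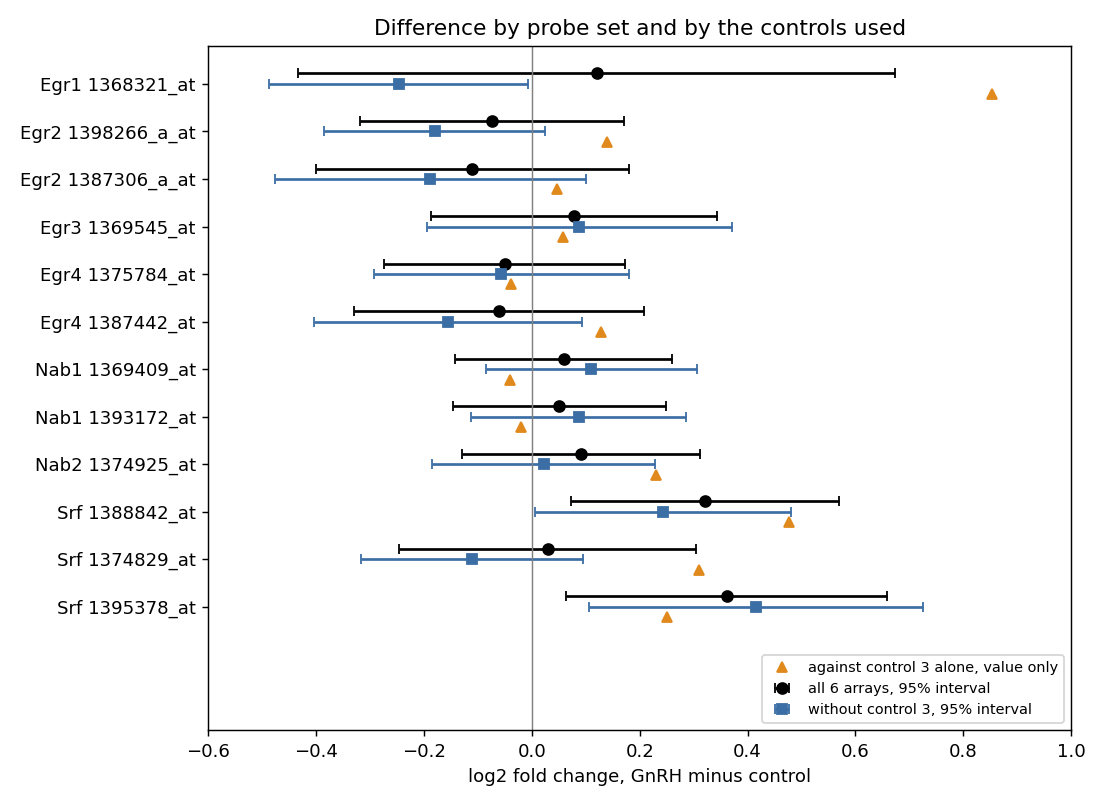
Log2 fold change (GnRH minus control, horizontal axis) of each probe set with all 6 arrays (black circles) and without control 3 (blue squares), both with 95% intervals, and against control 3 alone (orange triangles, no interval drawn). For Egr1 the 3 values are 0.12, -0.25 and 0.85, while 2 of the 3 Srf probe sets stay above 0 in each.

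Among the genes that carry the signal to Srf and those it controls, none passed by limma with all 6 arrays. Of 9 measured cofactors and kinases of the pathway, 3 had an unadjusted p under 0.05 (1 lower and 2 higher with GnRH), when 13.2% of all genes did, and the median difference was -0.02, beside -0.01 over all genes. Myocd (-0.23), a muscle cofactor of Srf, Map2k2 (0.28), a MAP kinase kinase, and Mrtfa (0.21), an actin-sensing cofactor, had the smallest p-values, with limma adjusted p-values of 0.359, 0.376 and 0.404. Of 15 measured cytoskeletal targets, 5 had an unadjusted p under 0.05 (1 higher and 4 lower with GnRH) and 5 had higher means with GnRH (median -0.11). The myosin light chain gene Myl9 had 0.45, Fhl2, a LIM-domain cofactor, -0.42, and the cytoplasmic actin gene Actg1 -0.27, with limma adjusted p-values of 0.125, 0.168 and 0.307. Without control 3, Myl9 rose by 0.36 (limma adjusted p = 0.0476) and Fhl2 fell by 0.50 (limma adjusted p = 0.0209), when 6.25% of all genes rose and 2.20% fell.

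Other immediate early genes showed the low control 3 of Egr1 in part. Of 24 measured, 13 had their lowest value in control 3, against 21.0% of all genes, and the median of control 3 minus the mean of controls 1 and 2 was -0.27, beside -0.02 over all genes. Fosb stood at -1.76, Jun at -1.52, Junb at -0.95 and Nr4a1 at -0.82, all on the log2 scale. In 8 of the 24 control 3 lay above that mean, as in 46.7% of all genes, with Nr4a2 at 0.71 and Dusp1 at 0.35 the highest. Between GnRH and control cultures 0 of 24 passed by limma and 13 had an unadjusted p under 0.05, when 13.2% of all genes did. The median of 0.15 turned to -0.02 without control 3, when 5 rose and 0 fell (6.25% and 2.20% of all genes). With all 6 arrays the GnRH values lay above every control in 9 of the 24 and below every control in 3, against 8.65% and 8.62% of all genes. The smallest p-values were those of Klf4 (0.55), Jund (1.08) and Dusp1 (0.42), with limma adjusted p-values of 0.0534, 0.0835 and 0.185. Among the 15 of these genes with a promoter window, Klf6 and Zfp36 held a CArG box and 13 held no match. Those 13 took in Fosb, Junb and Nr4a1, low in control 3, as well as Nr4a2 and Dusp1, high there.

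**Figure D4:**
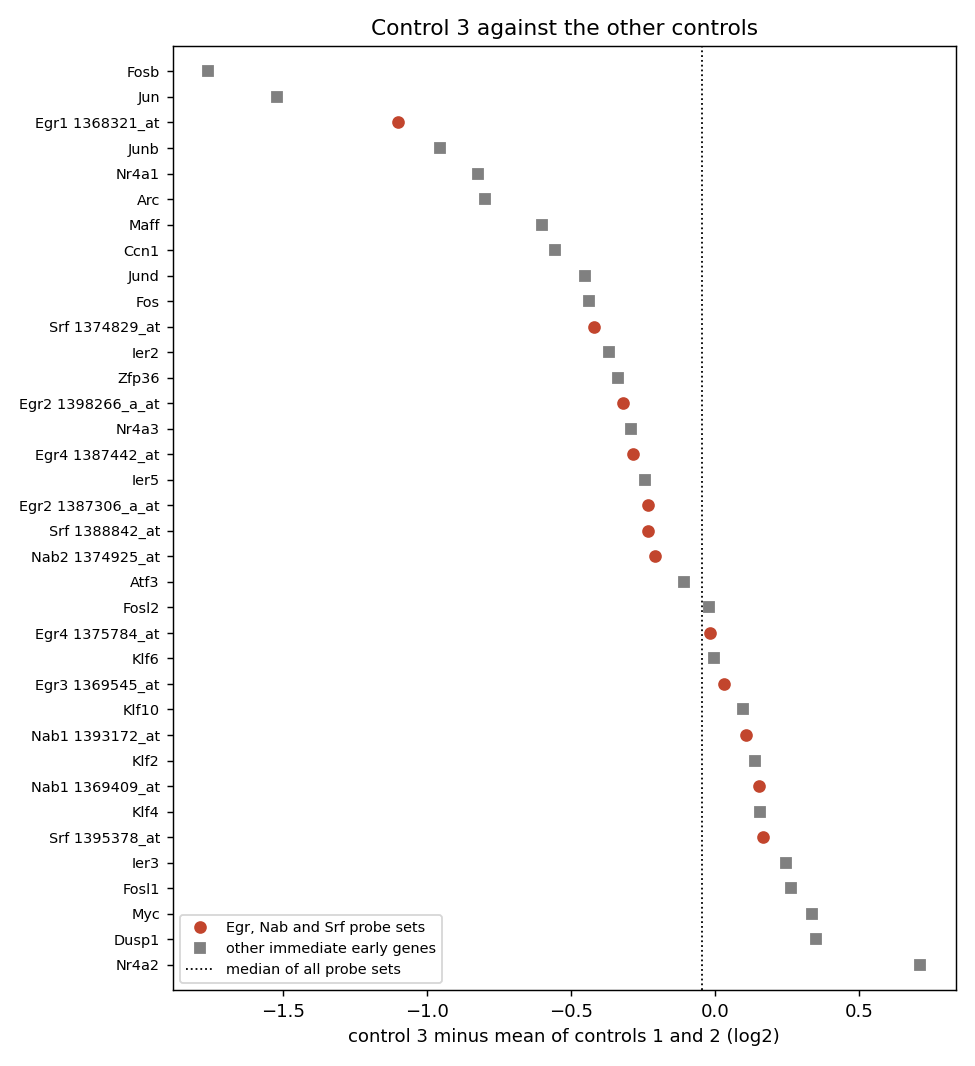
Control 3 minus the mean of controls 1 and 2 (log2, horizontal axis) for the 12 member probe sets (red circles) and 24 other immediate early genes (grey squares), ordered by value, with the median of all probe sets as a dotted line. Egr1 at -1.10 lies between Jun and Junb near the low end, whereas Srf 1395378_at, the highest member at 0.16, both Nab1 probe sets and Egr3 lie above 0.

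Lhb, the genes known to act with Egr1 on its promoter, and the GnRH receptor gene formed a list of 6. Of these, Gnrhr, the GnRH receptor, and Nr5a1 rose and 0 fell, with a median of 0.44, where 0.556% of all genes rose and 0.0492% fell. Gnrhr rose by 1.12 ± 0.17 (limma adjusted p = 0.0215) and Nr5a1 by 0.54 ± 0.10 (limma adjusted p = 0.0471). Pitx1 had 7.30, 7.52 and 6.75 with GnRH, against 6.52, 6.62 and 6.04 in controls; the groups did not overlap, but the difference of 0.80 ± 0.20 did not pass (limma adjusted p = 0.134). Lhb itself had 12.38, 12.67 and 12.71 with GnRH, against 12.03, 12.09 and 12.63 in controls, a difference of 0.34 (limma adjusted p = 0.425). In control 3 Lhb was thus the highest control while Egr1 was the lowest. Without control 3 the Lhb difference was 0.53 and passed (limma adjusted p = 0.0192), when 6.25% of all genes rose. In that fit GnRH and the Xist level cannot be told apart. Cga, the subunit shared by LH and FSH, differed by 0.18 and Fshb, the FSH beta subunit, by -0.30, with limma adjusted p-values of 0.536 and 0.723.

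Markers of the gland's cell types were summed in each array. The summed intensity of 5 gonadotrope markers was 14646 to 18129 with GnRH, against 12965 to 16579 in controls, with control 3 the highest control. For 4 folliculostellate markers the sum was 584 to 764 with GnRH, against 846 to 1044 in controls, though 2 of the 4 had higher means with GnRH. Gfap, a glial filament gene, had -1.97 (limma adjusted p = 0.0835; -1.80 and 0.0367 without control 3), Aldh1a1 -0.10, Sox2 0.018 and S100b 0.15. Macrophage markers (6 genes) summed to 592 to 641 with GnRH, against 579 to 729 in controls. Endothelial (3 genes) and fibroblast (5 genes) sums overlapped as well, at 311 to 335 and 586 to 791 with GnRH, against 313 to 348 and 672 to 902 in controls. The fibroblast sum joins genes of both directions. Dcn (-0.63) and Lum (-0.54) had lower means with GnRH and the other 3 higher means, as did 47.6% of all genes, and none passed by limma with all 6 arrays. The 2 corticotrope and melanotrope markers summed to 196 to 356 with GnRH, against 324 to 546 in controls, and the 4 lactotrope and somatotrope markers to 36888 to 37564 with GnRH, against 34387 to 37357 in controls. The part of these cells in the member values was not tested.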

How the data were processed

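The authors deposited linear array intensities, 1 per probe set and array, made with RMA per the submitters' processing notes, with no version or setting named in the labels. The 6 arrays had median intensities of 64.5 to 67.0, no missing values and no detection calls. The number of arrays limits the precision.

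Values were turned to log2 with no pseudocount and fitted over all 31042 probe sets in R 4.3.3 by limma 3.58.1 (functions lmFit and eBayes, 2-sided, no covariate, no filter), with Benjamini-Hochberg adjustment over all of them and a threshold of 0.05. A log2 fold change is the GnRH mean minus the control mean. Gene names came from the array annotation, updated through gene identifiers to GRCr8 (20758 of 20826 probe sets with 1 symbol); 436 with several symbols and 9780 not listed were left unnamed. Outside the 12 member probe sets a gene stands for its brightest probe set.

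The members and gene lists were chosen with earlier results of these data known. Named by rule were all member probe sets, up to 3 genes of smallest p-value in each pathway list, the gonadotrope hormone and receptor genes, and the 5 genes nearest to Egr1; control 3 comparisons and the genes named there were chosen after their values were seen. Listed genes without a probe set of their own name were not analysed here, and likewise RefSeq windows for Egr3 and some immediate early genes.

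On simulated data for this comparison with 31042 probe sets, 26 of 50 changes of 0.58, and 50 of 50 at 1.00, 1.50 and 2.00, were recovered, with 13 false among 189 calls. The simulated spread was independent between arrays, with no array set apart as control 3 was. These counts therefore do not give the recovery for probe sets such as Egr1 (SE 0.25). In the data, Jund at 1.08 did not pass. Same-numbered samples had deviations correlated at 0.16, -0.05 and 0.16, so the replicate numbers were not taken as pairs.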

Additional observations from a re-analysis of the deposited data

How the results depend on the processing

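With each array centred on its median, quantile normalization, cyclic loess, dim probe sets left out, a pseudocount of 32, an intensity trend, robust variances, array weights, gene means over probe sets, a threshold of 0.1 or the replicate block, 0 member probe sets passed by limma, as with each array left out in turn. Against control 3 alone, without controls 1 and 2 (chosen after the data were seen), 1 passed, Egr1 at 0.85 (limma adjusted p = 0.0362; 0.0362 to 0.982 over its alternatives), and 265 of all probe sets passed. That array was picked after its low Egr1 value had been seen, so this difference is a description and not a test. The larger Srf differences kept their sign in every alternative run, from 0.22 to 0.48 and from 0.22 to 0.46.

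Of all probe sets, 144 passed (131 higher, 13 lower), and 90 with quantile normalization, 93 with cyclic loess, 48 with the pseudocount, 3020 with array weights (0.298 for control 3, the smallest), 341 at a threshold of 0.1 and 86 genes with gene means. With the replicate block 215 passed, within 1.5 times. With each array left out the count ran from 20 (without GnRH 2) to 2309 (without control 3).

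Small differences turned sign. With array weights Egr1 had -0.15, Nab2 -0.0056 and Srf 1374829_at -0.13. Against control 3 alone the Egr2 probe sets had 0.14 and 0.046, Egr4 1387442_at 0.13 and the Nab1 probe sets -0.041 and -0.020. Leaving out 1 array, Egr1 ran from -0.25 to 0.31, Egr2 1398266_a_at from -0.18 to 0.0028, Egr2 1387306_a_at from -0.20 to 0.010, Egr3 from -0.051 to 0.20, Egr4 1375784_at from -0.13 to 0.043, Egr4 1387442_at from -0.16 to 0.059 and Srf 1374829_at from -0.11 to 0.14. The cause was not tested. With no detection calls, what is limited by low signal cannot be said for single probe sets.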
